A study of Mus musculus and Homo sapiens with 59 samples.

Results

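The genes that encode the subunits of the proteasome were followed through cells whose plasma membrane was opened by a pore-forming protein or a detergent. A gene was included when its symbol was Psm followed by a, b, c, d or e and a number. The rule selected 42 of 19407 mouse rows and 42 of 22192 human rows without using any measured value. Both sets held 14 constitutive subunits of the 20S core, 17 subunits of the 19S particle, 3 assembly chaperones of the 19S base that carry Psmd names, 4 activators and the catalytic subunits Psmb8, Psmb9, Psmb10 and Psmb11.

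The proteasome is the main protease of the cytosol and nucleus and degrades proteins tagged with ubiquitin. Its 20S core is a barrel of stacked rings: outer rings of alpha subunits gate the entrance and inner rings of beta subunits carry the proteolytic sites. The 19S particle binds ubiquitin chains, removes them and threads the substrate into the core with a ring of ATPases. Interferon replaces the catalytic beta subunits with those of the immunoproteasome, and when proteolysis fails the transcription factor NRF1, encoded by Nfe2l1, raises proteasome genes as a group through antioxidant response elements.

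The series holds polyadenylated RNA of 59 libraries in 30 groups, made from mouse NIH3T3 fibroblasts, mouse LLC lung carcinoma cells, human HT29 colon carcinoma cells and human BxPC3 pancreatic carcinoma cells. All cells were grown in DMEM. AP20187, a dimerizer, was given at 100 nM for 1 h to NIH3T3 and LLC cells carrying hMLKL1–181-2Fv, an N-terminal part of the human necroptosis effector MLKL fused to dimerizer-binding domains, and was set against the same cells left untreated. Versions of this NIH3T3 arm used Ca2+-free DMEM, siCTR or siPKC, and the noko and p65ko cells. 4OHT, the ligand of the fused hormone-binding domain, was given at 50 nM for 2.5 h to NIH3T3 and LLC cells carrying mGSDMD1-276-HBD, an N-terminal part of the mouse pyroptosis effector gasdermin D. Digitonin, a detergent that permeabilizes the plasma membrane, was applied for 3 h at 55 µg/mL in the mouse lines. In the human lines it was applied for 2 h at 40 µg/mL. It was set against the noDig (mouse) or NT (human) libraries left untreated, and the titles of these libraries name no construct. Cells without a construct received AP20187 (NIH3T3, 100 nM, 1 h) or 4OHT (LLC, 50 nM, 2.5 h) as controls of the ligands. Every group had 2 libraries except siPKC cells given AP20187, which had 1 and took its spread from the other groups. The labels do not say whether construct lines or p65ko cells were single clones, nor whether replicates were independent cultures. The p-values therefore reflect the spread among these libraries alone, which may be technical.

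Values are TPM, a transcript abundance scaled for transcript length and for the total of each library. They keep no sequencing depth, so no counting error can be given for a gene. A change is a difference of log2(TPM + 1) between treated and untreated libraries, which understates changes of genes near 1 TPM. It passed when limma's moderated test, adjusted over all genes tested in that comparison, gave p under 0.05; the words rose and fell are used only for such genes. A second scale, called median-centred, first sets the median gene of each library to a common value. In bulk RNA, fewer cells of a type and less RNA per cell cannot be told apart.

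Gsdmd, targeted by the gasdermin construct, stood at 709.7 and 747 TPM in 4OHT-treated and 1230.3 and 1135 TPM in untreated NIH3T3 construct libraries, against 5.44 to 6.14 TPM in untreated NIH3T3 cells without it. In LLC cells Gsdmd stood at 326 and 336 TPM in digitonin-treated and 333 and 337 TPM in noDig libraries. It stood at 376 and 377 TPM in untreated LLC gasdermin libraries and at 22.6 and 22.6 TPM in untreated LLC cells without a construct. The LLC digitonin arm can therefore not be taken as free of the gasdermin construct, and its cells were not identified further. Rela, the gene of p65, stood at 13.6 and 14.1 TPM in untreated p65ko libraries and 49.2 and 49.7 TPM in untreated noko libraries. The human MLKL construct cannot be read from the mouse table. The 8 fibroblast markers summed to 5767 to 8524 TPM in NIH3T3 libraries, with Vim at 3685 to 6744 and Col1a2 at 428 to 2350 TPM and Lum alone under 1 TPM in all. In LLC libraries the epithelial markers summed to 291 to 543 TPM, from Krt8 (80.7 to 326 TPM) and Krt18 (159 to 280 TPM). Epcam, Cdh1 and Cldn7 were under 1 TPM in all of them. The fibroblast markers summed higher in LLC libraries, to 2748 to 4853 TPM, with Vim at 2567 to 4532 and Fn1 at 114 to 211 TPM. Col3a1 reached 276 TPM in LLC and 140 TPM in NIH3T3 libraries, while Col1a1, Col1a2, Thy1 and Lum were under 1 TPM in all LLC libraries. Epithelial markers summed to 12750 to 15172 TPM in HT29 and 4526 to 6841 TPM in BxPC3 libraries. Of 7 leukocyte markers PTPRC, CSF1R, CD79A and ADGRE1 were under 1 TPM in all human libraries, but LYZ stood at 1750 to 1856 TPM in HT29, CD68 at 15.7 to 21.5 TPM in HT29 and 16.0 to 19.6 TPM in BxPC3, and CD3E at 0.609 to 1.41 TPM in BxPC3 libraries.

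Untreated cells of all lines transcribed the core and the 19S particle at high levels. The median constitutive 20S subunit stood at 324 TPM in NIH3T3, 366 TPM in LLC, 288 TPM in HT29 and 211 TPM in BxPC3 cells, and the median 19S subunit at 194, 223, 179 and 103 TPM in the same order of lines. Among the 31 subunits of both assemblies, the highest exceeded the lowest by 4.35-fold in NIH3T3, 4.10-fold in LLC, 8.68-fold in HT29 and 7.82-fold in BxPC3 cells, and no subunit had a median below 50 TPM. Psmb3, a non-catalytic ring subunit, led in NIH3T3 cells with a median of 491 TPM over 18 libraries. Medians of the mouse lines pool all their untreated groups, with and without constructs. Psmb2 had the higher NIH3T3 mean (512 TPM, against 472 TPM for Psmb3). Psmb2 stood at 571 and 589 TPM and Psmb3 at 390 and 375 TPM in untreated gasdermin libraries. In untreated MLKL libraries the order was reversed (465 and 453 TPM for Psmb2, 539 and 537 TPM for Psmb3). Psma7, an alpha subunit, led in LLC cells with 573 TPM over 8 libraries, and PSMA4, also an alpha subunit, led in HT29 cells with 634 TPM over 2 libraries. BxPC3 differed in that PSME2, which encodes a subunit of the interferon-inducible activator PA28, was the most abundant member at 443 TPM. Together the members made up 0.784% to 0.893% of TPM in NIH3T3, 0.861% to 1.03% in LLC, 0.836% to 0.846% in HT29 and 0.623% in BxPC3 cells.

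**Figure D1:**
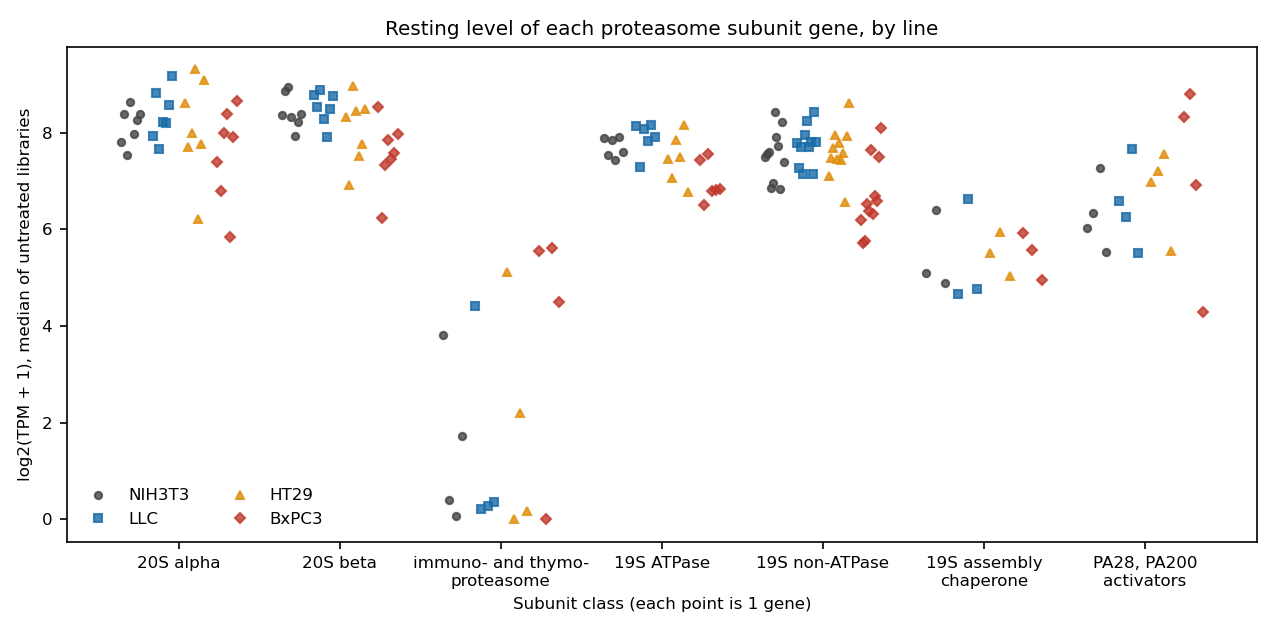
Median log2(TPM + 1) over the untreated libraries of each line, 1 point per gene, by class of subunit. The constitutive 20S subunits have the highest class median in NIH3T3, LLC and HT29 cells, and Psmb8, Psmb9 and Psmb11 have the lowest levels outside BxPC3 cells.

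The catalytic subunits differed between lines in which version was transcribed. Psmb5, Psmb6 and Psmb7 carry the chymotrypsin-like, caspase-like and trypsin-like sites, and in the immunoproteasome Psmb8, Psmb9 and Psmb10 take their places. PSMB8 made up 20.9% to 22.1% of the summed TPM of PSMB8 and PSMB5 in untreated BxPC3 and 1.78% to 2.08% in untreated HT29 libraries. The same share was at most 0.313% in untreated LLC and at most 0.126% in untreated NIH3T3 libraries. PSMB9 made up 9.59% to 10.8% of PSMB9 and PSMB6 in BxPC3 and 0.0359% to 0.0749% in HT29 libraries. Psmb10 was present everywhere, at 15.2% to 15.6% of the pair in BxPC3, 8.56% to 8.71% in HT29, 3.36% to 8.59% in LLC and 2.92% to 4.48% in NIH3T3 libraries. The upper LLC values, 8.59% and 7.97%, were those of the untreated gasdermin libraries, and the other untreated LLC libraries had 3.36% to 4.85%. Psmb11, the thymus-specific subunit, was too low to be tested in any comparison, as was mouse Psmb8.

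The mouse promoters of the catalytic subunits Psmb5 and Psmb6 are printed because both hold the core of an antioxidant response element, spelled TGACNNNGC, on the printed strand. Psmd9, an assembly chaperone, holds it on that strand too, at position -31, and is not printed. Sequences are from RefSeq on GRCm38.p6 and cover the 250 bases before the annotated start, 5′ to 3′, with the element in capitals. Psmb5 lies at chr14:54617996-54618245, minus strand, and Psmb6 at chr11:70525107-70525356, plus strand.
Psmb5: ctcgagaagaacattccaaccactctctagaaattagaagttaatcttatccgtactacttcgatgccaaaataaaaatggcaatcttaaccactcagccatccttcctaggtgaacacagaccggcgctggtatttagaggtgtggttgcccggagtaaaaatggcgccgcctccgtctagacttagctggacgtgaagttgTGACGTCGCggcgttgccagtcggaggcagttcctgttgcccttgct
Psmb6: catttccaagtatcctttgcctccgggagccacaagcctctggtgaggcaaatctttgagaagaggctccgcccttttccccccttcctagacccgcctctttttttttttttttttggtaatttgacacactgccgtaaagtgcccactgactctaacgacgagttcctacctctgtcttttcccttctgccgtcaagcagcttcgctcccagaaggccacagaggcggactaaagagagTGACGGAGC
The first base of the element lies at position -47 in Psmb5 and -9 in Psmb6 relative to the RefSeq start. GENCODE places the minus-strand start of Psmb5 at 54618022, inside its printed window. Of 39 promoters that matched 36 mouse members, 6 (15.4%) held this sequence on either strand within 250 bases before and 50 after the start, against 12.4% of all 32851 promoters. The other 4 were Psmd9, Psmc6, Psmd12 and Psme4. CCAAT, a common promoter box searched on both strands whether or not it overlapped the element, was in 14 (35.9%) of these promoters and in 37.4% of all. A match describes letters only and says nothing about a factor.

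From 16 to 40 of the tested members fell in 10 of the 12 arms with a permeabilizing stimulus in complete medium, 11 fell in NIH3T3 MLKL cells and 0 in LLC MLKL cells, and these counts are read against the share of all genes. In NIH3T3 cells with the MLKL construct, AP20187 raised 1 and lowered 11 of 40 tested members, where 15.8% and 16.5% of all genes were higher and lower. The median change of members was -0.08, beside -0.02 for all genes. That count rests on few libraries: leaving out untreated replicate 1 or 2 left 4 or 3 lower members, and leaving out treated replicate 1 or 2 left 8 or 7. Psmd7 and Psmb6 were among the members that fell and Psme4 was the 1 member that rose, a call lost without untreated replicate 1 or treated replicate 1.

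Larger counts were seen in siCTR, siPKC, noko and p65ko cells with the same construct, where more genes were also lower than higher. With siCTR, 3 members rose and 18 fell (background 13.7% and 51.8%, median -0.09 beside -0.19 for all genes). With siPKC, 2 rose and 16 fell (background 10.5% and 37.5%, median -0.09 beside -0.14). In noko cells 1 rose and 26 fell (background 10.6% and 55.5%, median -0.14 beside -0.22), and in p65ko cells 0 rose and 26 fell (background 8.99% and 50.4%, median -0.12 beside -0.19). In these 4 arms the members' median therefore lay nearer to 0 than that of all genes, and on the median-centred scale more members were higher than lower in all but siPKC cells. Centring gave 13 higher and 4 lower with siCTR (all genes 25.7% and 29.8%), 4 and 6 with siPKC (17.6% and 22.2%), 11 and 3 in noko (23.6% and 26.8%), and 8 and 2 in p65ko cells (21.8% and 21.0%). The members' centred shares that were higher in noko and p65ko cells lay near those of all genes. Without siCTR untreated replicate 1, 6 members were higher and 8 lower, and without noko untreated replicate 1, 17 were lower.

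Calcium-free medium and ligand controls gave few calls. In Ca2+-free DMEM, 0 members rose and 2 fell after AP20187 (background 2.27% and 3.42%), 6 had an unadjusted p under 0.05, and neither call held when any of the 4 libraries was left out. In NIH3T3 cells without a construct AP20187 gave 0 calls among 40 members with limma and 2 at an unadjusted p under 0.05 (background 0.0174% and 0.287%). In LLC cells without a construct 4OHT gave 0 calls with limma and 2 at an unadjusted p under 0.05 (background 0.819% and 0.0450%).

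Gasdermin and digitonin lowered most members in NIH3T3 cells. After 4OHT in gasdermin cells, 1 rose and 36 fell (background 20% and 58.6%), with a median of -0.43 beside -0.29 for all genes, and 5 were higher and 25 lower on the median-centred scale. After digitonin, 4 rose and 33 fell (background 39.3% and 34.2%), with a median of -0.30 beside 0.02, and 3 were higher and 36 lower after centring. On the centred scale 33.0% and 38.9% of all genes were higher and lower after gasdermin, and 31.3% and 46.3% after digitonin. Among the mouse arms, the share of members that fell stood farthest above the background after digitonin, on both scales.

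In LLC cells few members were called after MLKL and most after gasdermin, but these arms differ in ligand and time and were not tested against each other. AP20187 in MLKL cells raised 1 and lowered 0 of 39 tested members, with 3 at an unadjusted p under 0.05 (background 5.48% and 2.08%). 4OHT in gasdermin cells raised 3 and lowered 30 (background 27.9% and 54.0%, median -0.27 beside -0.25), and centring gave 6 higher and 22 lower (all genes 33.2% and 47.7%). Digitonin raised 1 and lowered 16 (background 20.3% and 32.2%, median -0.11 beside -0.06), and centring gave 2 higher and 17 lower (all genes 21.9% and 31.1%).

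BxPC3 cells had the deepest change of all arms. Digitonin raised 1 and lowered 40 of 41 tested members there (background 23.7% and 56.9%), with a median of -0.83 beside -0.37 for all genes, and 2 were higher and 32 lower after centring (all genes 42.5% and 35.7%). In HT29 cells 2 rose and 16 fell of 40 tested (background 16.5% and 44.0%, median -0.09 beside -0.16), while centring gave 12 higher and 3 lower (all genes 25.8% and 30.6%). Without HT29 digitonin replicate 2, 10 were lower. The members' summed share of TPM was 0.362% ± 0.00854 in digitonin-treated and 0.623% ± 0.000520 in untreated BxPC3 cells (SD, n = 2 each). In the same arm all 3 tested fibroblast markers and 5 of 7 epithelial markers rose, VIM to 137 and 134 TPM after digitonin, against 13.4 and 13.4 TPM untreated, and their part in the result was not tested.

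**Figure D2:**
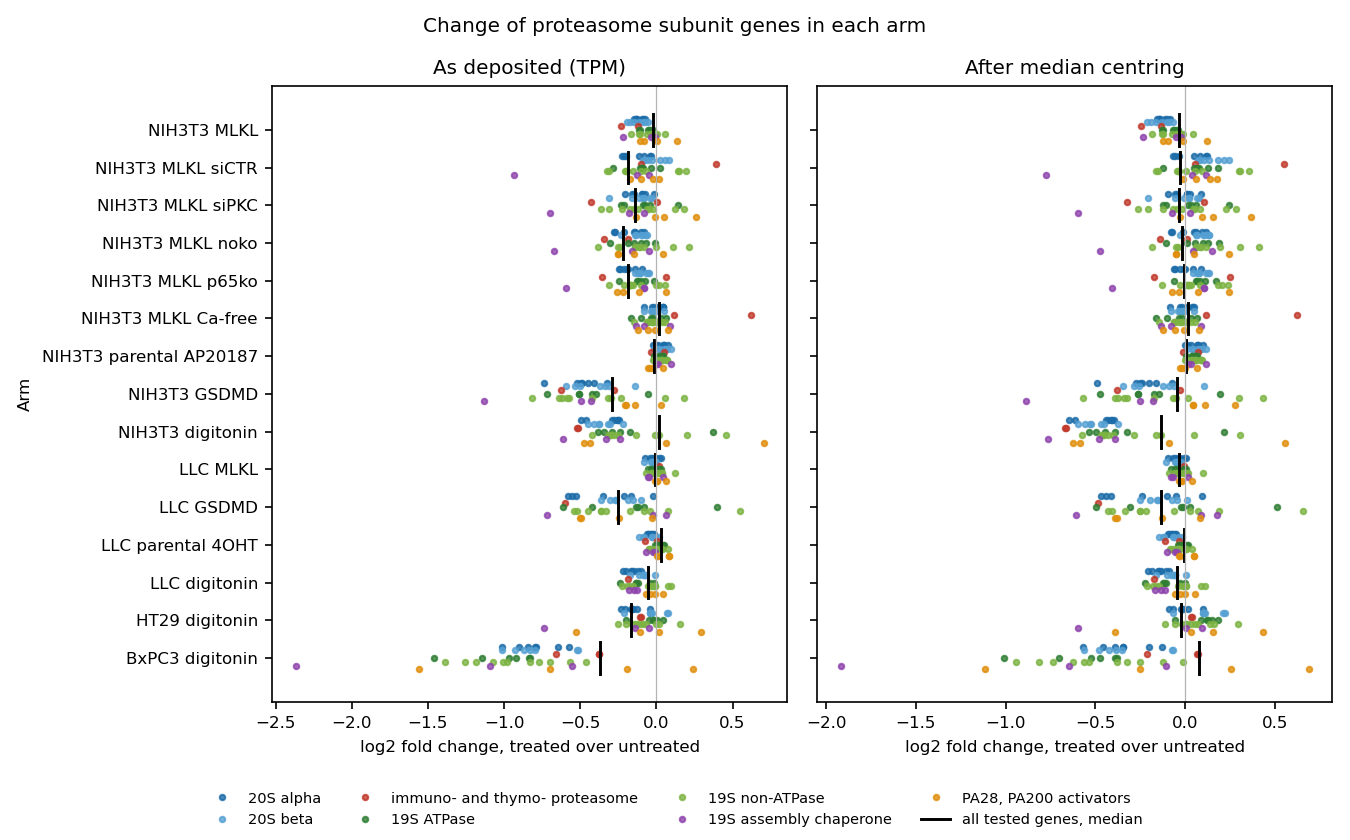
Change of each tested member on the log2(TPM + 1) scale in the 15 arms, as deposited on the left and median-centred on the right, with a black tick at the median of all tested genes. Most members lie left of the tick in both panels in BxPC3 digitonin, NIH3T3 gasdermin and NIH3T3 digitonin cells, and most lie right of it in siCTR, siPKC, noko and p65ko cells.

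Among the alpha subunits of the core, Psma6 fell in 11 of the 12 arms with a permeabilizing stimulus in complete medium. In 6 of them it also fell after centring. Psma1 and Psma4 fell in 10, in 6 and 5 of them also after centring. Psma4 had 211 and 212 TPM in digitonin-treated LLC libraries, against 257 and 235 TPM in untreated ones, a change of -0.22 ± 0.040 (SE, adjusted p = 0.000756). Psma7 had 440.4 and 416 TPM in 4OHT-treated LLC gasdermin libraries, against 611 and 625 TPM in untreated ones, a change of -0.53 ± 0.030 (SE, adjusted p = 7.24e-09). The treated libraries lay below the untreated ones in both comparisons. All 7 alpha subunits fell after gasdermin in NIH3T3, after digitonin in NIH3T3 and after digitonin in BxPC3 cells, with medians of -0.49, -0.28 and -0.79. Of all genes, 58.6%, 34.2% and 56.9% were lower in these arms.

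Of the constitutive beta subunits 7 of 7 fell after gasdermin in NIH3T3 and LLC cells and after digitonin in NIH3T3 and BxPC3 cells. In the same order 58.6%, 54.0%, 34.2% and 56.9% of all genes were lower. Psmb6, the caspase-like subunit whose promoter is printed above, had 281 and 282 TPM in AP20187-treated NIH3T3 MLKL libraries, against 322 and 323 TPM in untreated ones, a change of -0.20 ± 0.043 (SE, adjusted p = 0.00151). Psmb2, a non-catalytic ring subunit, had 545 and 526 TPM in digitonin-treated NIH3T3 libraries, against 685 and 704 TPM in untreated ones, a change of -0.38 ± 0.031 (SE, adjusted p = 6.47e-10). PSMB5, the chymotrypsin-like subunit, had 86.7 and 85.2 TPM in digitonin-treated BxPC3 libraries, against 172 and 176 TPM in untreated ones, a change of -1.01 ± 0.048 (SE, adjusted p = 1.59e-06). In each case no treated library reached an untreated one. With siCTR, noko and p65ko cells 1, 4 and 4 beta subunits fell, where 51.8%, 55.5% and 50.4% of all genes were lower. On the centred scale 0 fell, where 29.8%, 26.8% and 21.0% of all genes were lower. There 4, 3 and 1 beta subunits were higher, beside 25.7%, 23.6% and 21.8% of all genes.

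In BxPC3 cells each immunoproteasome subunit had a smaller change than the constitutive subunit it replaces, a difference that was not tested. After digitonin PSMB8 averaged 29.9 ± 0.325 TPM in treated and 47.8 ± 3.21 TPM in untreated BxPC3 cells (SD, n = 2 each), a change of -0.66 ± 0.15 (SE, adjusted p = 0.00577). PSMB9 averaged 16.4 ± 1.25 TPM in treated and 21.7 ± 1.76 TPM in untreated cells (-0.38, adjusted p = 0.00757), and PSMB10 35.0 ± 2.47 TPM in treated and 45.6 ± 1.24 TPM in untreated cells (-0.37, adjusted p = 0.00132). PSMB6 changed by -0.93 and PSMB7 by -0.52, so that PSMB7 fell by less than PSMB8. All 3 immunoproteasome subunits fell in TPM, where 56.9% of all genes were lower, and on the centred scale none passed and their median was 0.07. Their shares of each catalytic pair were 25.8% ± 0.437 in treated and 21.5% ± 0.836 in untreated cells for PSMB8, 14.1% ± 1.06 in treated and 10.2% ± 0.846 in untreated cells for PSMB9, and 16.7% ± 1.19 in treated and 15.4% ± 0.313 in untreated cells for PSMB10, with 2 libraries in each group and no test. In LLC gasdermin cells Psmb10 had 26.6 ± 1.31 TPM after 4OHT and 40.9 ± 3.46 TPM untreated, a change of -0.60 ± 0.078 (SE, adjusted p = 1.53e-05), and its share of the pair was 5.95% ± 0.265 after 4OHT and 8.28% ± 0.435 untreated.

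**Figure D3:**
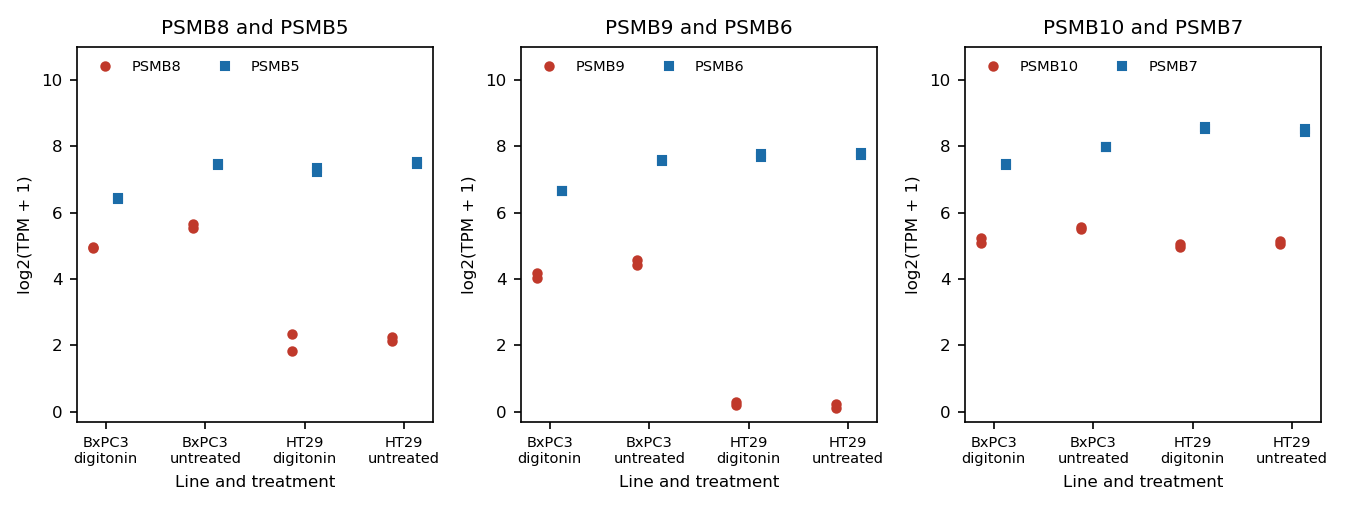
Log2(TPM + 1) of each immunoproteasome subunit and the constitutive subunit it replaces, per library, in digitonin-treated and untreated BxPC3 and HT29 cells. In BxPC3 cells the constitutive subunit of each pair drops further than its immunoproteasome counterpart, and PSMB8 and PSMB9 lie far lower in HT29 than in BxPC3 cells.

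The 19S ATPases unfold substrates at the base of the particle. Psmc1 fell in 9 of the 12 arms, in 8 of them on both scales. It had 140.4 and 134 TPM in 4OHT-treated NIH3T3 gasdermin libraries, against 226 and 227 TPM in untreated ones, a change of -0.72 ± 0.040 (SE, adjusted p = 8.47e-13), and 184 and 188 TPM in 4OHT-treated LLC gasdermin libraries, against 284 and 286 TPM in untreated ones, a change of -0.61 ± 0.032 (SE, adjusted p = 4.23e-09). It also fell after AP20187 with siCTR (213 and 215 TPM treated, 278 and 246 TPM untreated), in noko cells (197 and 195 TPM treated and 241 and 243 TPM untreated) and in digitonin-treated LLC cells (233 and 230.5 TPM treated and 281 and 265 TPM untreated). In p65ko cells the call (219.8 and 227 TPM treated and 263 and 266 TPM untreated, -0.24, adjusted p = 3.19e-05) was lost on the centred scale (-0.06, adjusted p = 0.253). Groups did not overlap in any of these comparisons. In HT29 cells Psmc1's human counterpart did not pass in TPM and was higher after centring.

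Psmc6, another ATPase, moved the other way in 2 arms. It had 219 and 234 TPM in digitonin-treated NIH3T3 libraries, against 168 and 182 TPM in untreated ones, a change of 0.37 ± 0.067 (SE, adjusted p = 4.45e-05). In LLC gasdermin cells it had 299 and 293 TPM in 4OHT-treated libraries, against 239 and 210.4 TPM in untreated ones, a change of 0.40 ± 0.068 (SE, adjusted p = 0.000147). No treated library overlapped an untreated one. PSMC2, an ATPase of the same ring, fell in BxPC3 cells to 27.3 and 37.4 TPM after digitonin, against 90.9 and 88.3 TPM untreated, with a change of -1.46 ± 0.13 (SE, adjusted p = 3.41e-05).

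Psmd7, the lid subunit that pairs with the deubiquitinase Psmd14, fell in 11 of the 12 arms, in 10 of them on both scales. GENCODE places it on mm10 at chromosome 8, 107580381 to 107588464, minus strand. It had 170.2 and 172 TPM in 4OHT-treated NIH3T3 gasdermin libraries, against 308 and 297 TPM in untreated ones, a change of -0.82 ± 0.029 (SE, adjusted p = 4.15e-16). In AP20187-treated MLKL cells it had 272 and 263 TPM, against 294 and 307 TPM untreated (-0.17 ± 0.029 (SE, adjusted p = 0.000137)). The fall was larger with siCTR (250.4 and 249.8 TPM treated, 322 and 306 TPM untreated, -0.33), with siPKC (246 TPM in 1 treated library and 300.4 and 311 TPM untreated, -0.31), in noko (198 and 203 TPM treated and 259.7 and 264 TPM untreated, -0.38) and in p65ko cells (206 and 206 TPM treated and 258 and 255 TPM untreated, -0.31), although these arms were not tested against it. In every one of these groups all treated libraries lay below all untreated ones.

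Digitonin and gasdermin in the other lines gave the same direction for this gene. Psmd7 had 258 and 259 TPM in digitonin-treated NIH3T3 libraries, against 322 and 318 TPM in untreated ones (-0.31 ± 0.029 (SE, adjusted p = 5.94e-09)) and 295 and 291 TPM in digitonin-treated LLC libraries, against 352 and 335 TPM in untreated ones (-0.23 ± 0.031 (SE, adjusted p = 7.56e-05)). It had 264 and 262 TPM after 4OHT in LLC gasdermin cells, against 385 and 381 TPM untreated (-0.54 ± 0.031 (SE, adjusted p = 7.24e-09)). PSMD7 had 70.5 and 79.4 TPM in digitonin-treated BxPC3 libraries, against 180.0 and 181 TPM in untreated ones (-1.26 ± 0.055 (SE, adjusted p = 1.12e-06)). The exception was AP20187 in LLC MLKL cells (334 and 347 TPM treated, 339 and 335 TPM untreated), where it did not pass, and in HT29 cells the call (-0.20) was lost after centring (-0.06).

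Psmd3, Psmd13 and Psmc3 each fell in 9 of the 12 arms, in 3, 4 and 6 of them on both scales. Psmc5, Psmc2 and Psmd2 fell in 8, on both scales in 5, 4 and 3. Psmd14, Psmc4, Psmd1 and Psmd12 fell in 7, on both scales in 4, 3, 2 and 3. After centring Psmc3, Psmc4 and Psmc5 were each higher in 2 arms, Psmd2 in 3 and Psmd12 in 1. Over these 12 arms 2.08% to 58.6% of all genes were lower. Psmd6, a lid subunit, fell in 10 of 12 arms, 8 of them on both scales. It had 76.1 TPM in the siPKC library given AP20187, against 99.1 and 97.5 TPM in untreated ones (-0.37 ± 0.063 (SE, adjusted p = 7.8e-05)), and PSMD6 had 78.1 and 77.9 TPM in digitonin-treated HT29 libraries, against 92.2 and 94.1 TPM in untreated ones (-0.25 ± 0.038 (SE, adjusted p = 0.000994)). PSMD2, a scaffold of the base, had 99.0 and 98.2 TPM in digitonin-treated BxPC3 libraries, against 199 and 200.3 TPM in untreated ones, a change of -1.01 ± 0.028 (SE, adjusted p = 1.7e-07). PSMD1, the other scaffold, had 26.5 and 27.4 TPM in the treated and 73.4 and 70.9 TPM in the untreated libraries, a change of -1.39 ± 0.044 (SE, adjusted p = 3.07e-07). Both genes fell to about the same depth as the particle's median of -0.97 or beyond it. In digitonin-treated NIH3T3 cells Psmd1 went up (156 and 154 TPM treated, 131 and 139 TPM untreated, 0.20 ± 0.034 (SE, adjusted p = 1.71e-05)), a call lost on the centred scale (0.05, adjusted p = 0.102). In Ca2+-free DMEM Psmd1 fell (162 and 161 TPM treated and 179.9 and 178 TPM untreated, -0.15 ± 0.034 (SE, adjusted p = 0.00985)), as did Psmc1 (194 and 200.1 TPM treated and 224 and 218 TPM untreated, -0.17 ± 0.041 (SE, adjusted p = 0.0167)).

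Psmd11 was called higher in more arms than any other member. It encodes the lid subunit that clamps the 19S particle to the core, and lies on mm10 at chromosome 11, 80428615 to 80473248, plus strand. Psmd11 rose in 7 of 12 arms on both scales and fell in 1. It had 221 and 221 TPM in 4OHT-treated LLC gasdermin libraries, against 154 and 148 TPM in untreated ones, a change of 0.55 ± 0.032 (SE, adjusted p = 1.02e-08). In digitonin-treated NIH3T3 cells it had 207 and 208 TPM, against 153 and 149.5 TPM untreated (0.45 ± 0.030 (SE, adjusted p = 1.01e-11)), and in 4OHT-treated NIH3T3 gasdermin cells 231 and 213 TPM, against 195 and 195 TPM untreated (0.18 ± 0.029 (SE, adjusted p = 7.8e-06)). All treated libraries lay above all untreated ones there.

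The same gene rose after AP20187 in MLKL cells with siCTR (248 and 246 TPM treated, 217 and 214 TPM untreated, 0.19, adjusted p = 7.98e-06), with siPKC (197 TPM in 1 library, 174 and 174 TPM untreated, 0.18, adjusted p = 0.000396) and in noko cells (206 and 209 TPM treated and 181 and 178 TPM untreated, 0.21, adjusted p = 2.61e-06). In LLC MLKL cells Psmd11 was the 1 member called (179 and 175 TPM treated, 162 and 162 TPM untreated, 0.12 ± 0.032 (SE, adjusted p = 0.0403)), and the call was lost when any of the 4 libraries was left out (adjusted p 0.115 to 0.209). In BxPC3 cells PSMD11 fell to 27.9 and 29.1 TPM after digitonin, against 52.4 and 50.2 TPM untreated (-0.83 ± 0.045 (SE, adjusted p = 2.81e-06)). The human and mouse responses were not tested against each other.

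Smaller rises on the 19S list were those of Psmd4, a ubiquitin receptor, Psmd8 and Psmd12, both lid subunits. Psmd4 rose with siCTR (220.5 and 226 TPM treated, 205 and 199.7 TPM untreated, 0.14, adjusted p = 0.000795). Psmd8 rose with siCTR (205 and 197 TPM treated and 188 and 175 TPM untreated, adjusted p = 0.0147), in LLC gasdermin cells (216 and 213 TPM treated and 201 and 206 TPM untreated, adjusted p = 0.0482, and 0.0627 with no filter on low values) and in digitonin-treated LLC cells (279 and 274 TPM treated and 265 and 252 TPM untreated, adjusted p = 0.0288). PSMD12 rose in HT29 cells (231 and 227 TPM treated and 201 and 209.9 TPM untreated, 0.16, adjusted p = 0.0249, and 0.0684 with the replicate number as a block). These rises were 0.16 or less on the log2 scale, and all but that of Psmd4 lost their call when 1 or more of the single libraries was left out.

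Psmd5 showed the deepest fall of any member. It encodes S5b, a chaperone that holds part of the ATPase ring during assembly and is not part of the finished particle. GENCODE places it on mm10 at chromosome 2, 34849734 to 34874968, minus strand. Its RefSeq promoter and that of Psmd11 are printed because these members moved in opposite directions. Neither window holds TGACNNNGC or CCAAT, so no letters are in capitals. Psmd5 covers chr2:34870963-34871212, minus strand, and Psmd11 covers chr11:80428365-80428614, plus strand, both on GRCm38.p6. The Psmd5 window precedes the RefSeq start but lies inside the gene as GENCODE places it, with its minus-strand start at 34874968. Bases before that GENCODE start are not printed.
Psmd5: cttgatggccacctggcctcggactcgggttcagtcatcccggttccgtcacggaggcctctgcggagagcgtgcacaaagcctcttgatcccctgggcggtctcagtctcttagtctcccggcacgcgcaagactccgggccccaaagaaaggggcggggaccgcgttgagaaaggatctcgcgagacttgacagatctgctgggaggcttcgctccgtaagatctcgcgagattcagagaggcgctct
Psmd11: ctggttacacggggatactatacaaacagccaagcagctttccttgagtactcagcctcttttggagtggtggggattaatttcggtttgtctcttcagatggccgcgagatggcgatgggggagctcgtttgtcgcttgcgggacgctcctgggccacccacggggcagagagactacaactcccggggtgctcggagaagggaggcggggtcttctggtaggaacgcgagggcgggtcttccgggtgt

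Psmd5 fell in 10 of the 12 arms, in all 10 on both scales. In NIH3T3 gasdermin cells it had 30.6 and 28.5 TPM in 4OHT-treated libraries, against 65.7 and 66.2 TPM in untreated ones, a change of -1.13 ± 0.050 (SE, adjusted p = 1.7e-14). In MLKL cells given AP20187 it had 84.2 and 83.2 TPM treated and 97.7 and 97.4 TPM untreated (-0.22 ± 0.050 (SE, adjusted p = 0.00213)). With siCTR it had 46.0 and 40.3 TPM treated and 85.0 and 81.5 TPM untreated (-0.93 ± 0.050 (SE, adjusted p = 1.15e-12)). Every treated library lay below every untreated one in these arms, and the siCTR fall was the deepest of the MLKL arms. The other MLKL arms gave 46.6 TPM treated and 73.3 and 79.5 TPM untreated with siPKC (-0.70), 54.4 and 51.3 TPM treated and 85.5 and 84.3 TPM untreated in noko (-0.67) and 63.5 and 66.0 TPM treated and 97.2 and 99.4 TPM untreated in p65ko cells (-0.59). In Ca2+-free DMEM it did not pass, at 72.7 and 69.4 TPM treated and 74.1 and 76.2 TPM untreated.

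Digitonin lowered the gene in all 4 lines. PSMD5 had 7.64 and 8.72 TPM in digitonin-treated BxPC3 libraries, against 46.2 and 46.4 TPM in untreated ones, a change of -2.37 ± 0.066 (SE, adjusted p = 1.73e-07), and 36.8 and 34.9 TPM in digitonin-treated HT29 libraries, against 58.8 and 62.3 TPM in untreated ones, a change of -0.74 ± 0.066 (SE, adjusted p = 9.16e-05). Psmd5 had 41.4 and 39.0 TPM in digitonin-treated NIH3T3 libraries, against 63.0 and 60.9 TPM in untreated ones (-0.61 ± 0.050 (SE, adjusted p = 5.15e-10)) and 72.1 and 73.8 TPM treated and 84.8 and 81.0 TPM untreated in LLC cells (-0.18 ± 0.038 (SE, adjusted p = 0.00187)). The exceptions were 4OHT in gasdermin cells and AP20187 in MLKL cells of the LLC line, neither of which passed in TPM. In LLC gasdermin cells Psmd5 had 111 and 115 TPM after 4OHT and 106 and 109.7 TPM untreated (0.07, adjusted p = 0.128, and 0.18 and 0.000386 centred). In LLC MLKL cells it had 89.0 and 85.5 TPM treated and 91.0 and 90.2 TPM untreated. The other chaperones named Psmd are Psmd9 and Psmd10. Psmd10 fell in LLC gasdermin cells by 0.72 on the log2 scale, where Psmd5 did not.

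**Figure D4:**
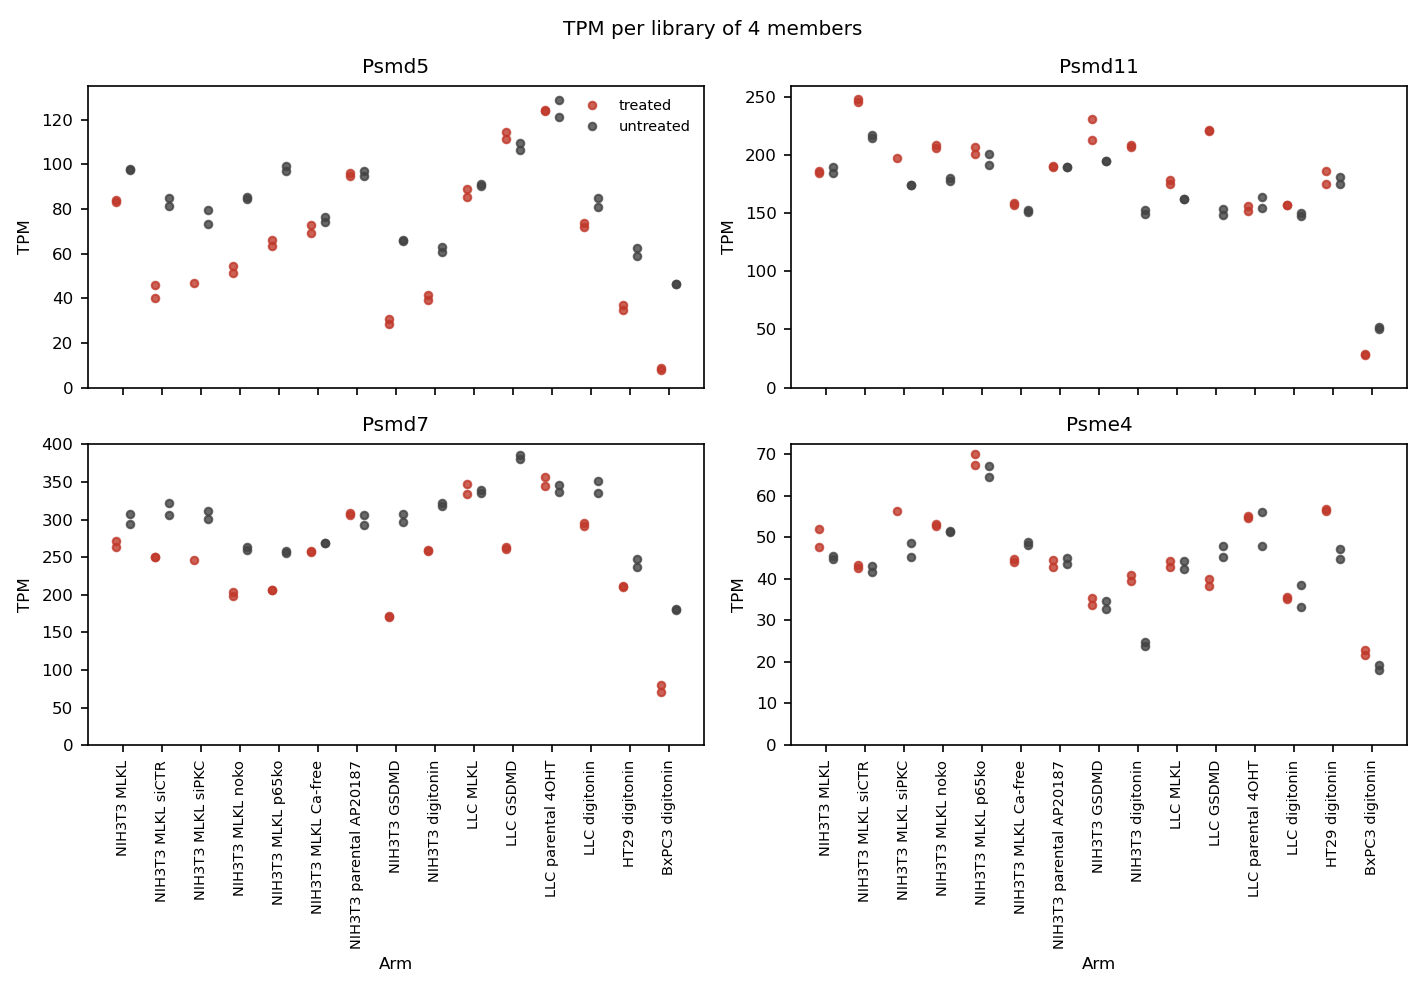
TPM per library of Psmd5, Psmd11, Psmd7 and Psme4 in each arm, treated libraries in red to the left of untreated ones. Psmd5 and Psmd7 fall in most arms, while Psmd11 and Psme4 rise in several mouse arms and PSME4 also rises in both human lines.

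The activators did not move as a group. Psme4 encodes PA200, a nuclear cap of the core, and rose in 5 of 12 arms on both scales. It had 39.5 and 40.8 TPM in digitonin-treated NIH3T3 libraries, against 23.7 and 24.7 TPM in untreated ones, a change of 0.71 ± 0.043 (SE, adjusted p = 3.42e-12), the largest rise of any member in NIH3T3. In MLKL cells it had 52.0 and 47.6 TPM after AP20187 and 44.6 and 45.6 TPM untreated (0.14 ± 0.043 (SE, adjusted p = 0.0181)), and with siPKC 56.3 TPM in 1 library and 45.1 and 48.6 TPM untreated (0.26 ± 0.053 (SE, adjusted p = 0.000404)). Treated libraries lay above untreated ones in each of these. It also rose in both human lines after digitonin, to 21.7 and 22.8 TPM, against 19.2 and 18.1 TPM untreated in BxPC3 cells (0.24 ± 0.050 (SE, adjusted p = 0.00307)), and to 56.8 and 56.3 TPM, against 44.8 and 47.2 TPM untreated in HT29 cells (0.29 ± 0.050 (SE, adjusted p = 0.002)). In LLC gasdermin cells Psme4 fell by 0.24 (adjusted p = 0.00928), a call lost after centring.

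PSME3, the gene of the nuclear activator PA28 gamma, was the member with the smallest adjusted p among those that fell in both human lines. It had 41.1 and 39.2 TPM in digitonin-treated BxPC3 libraries, against 121 and 119 TPM in untreated ones, a change of -1.56 ± 0.036 (SE, adjusted p = 9.35e-08). In HT29 cells it had 128 and 132 TPM treated and 186 and 191 TPM untreated, a change of -0.53 ± 0.037 (SE, adjusted p = 3.27e-05). PSME1 and PSME2, the interferon-inducible PA28 subunits, changed by -0.19 (adjusted p = 0.0114) and -0.70 (adjusted p = 1.43e-06) in BxPC3 cells. After centring 2 activators were higher and 2 lower there. PSME1 was the 1 member of that arm whose call turned from lower to higher.

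**Figure D5:**
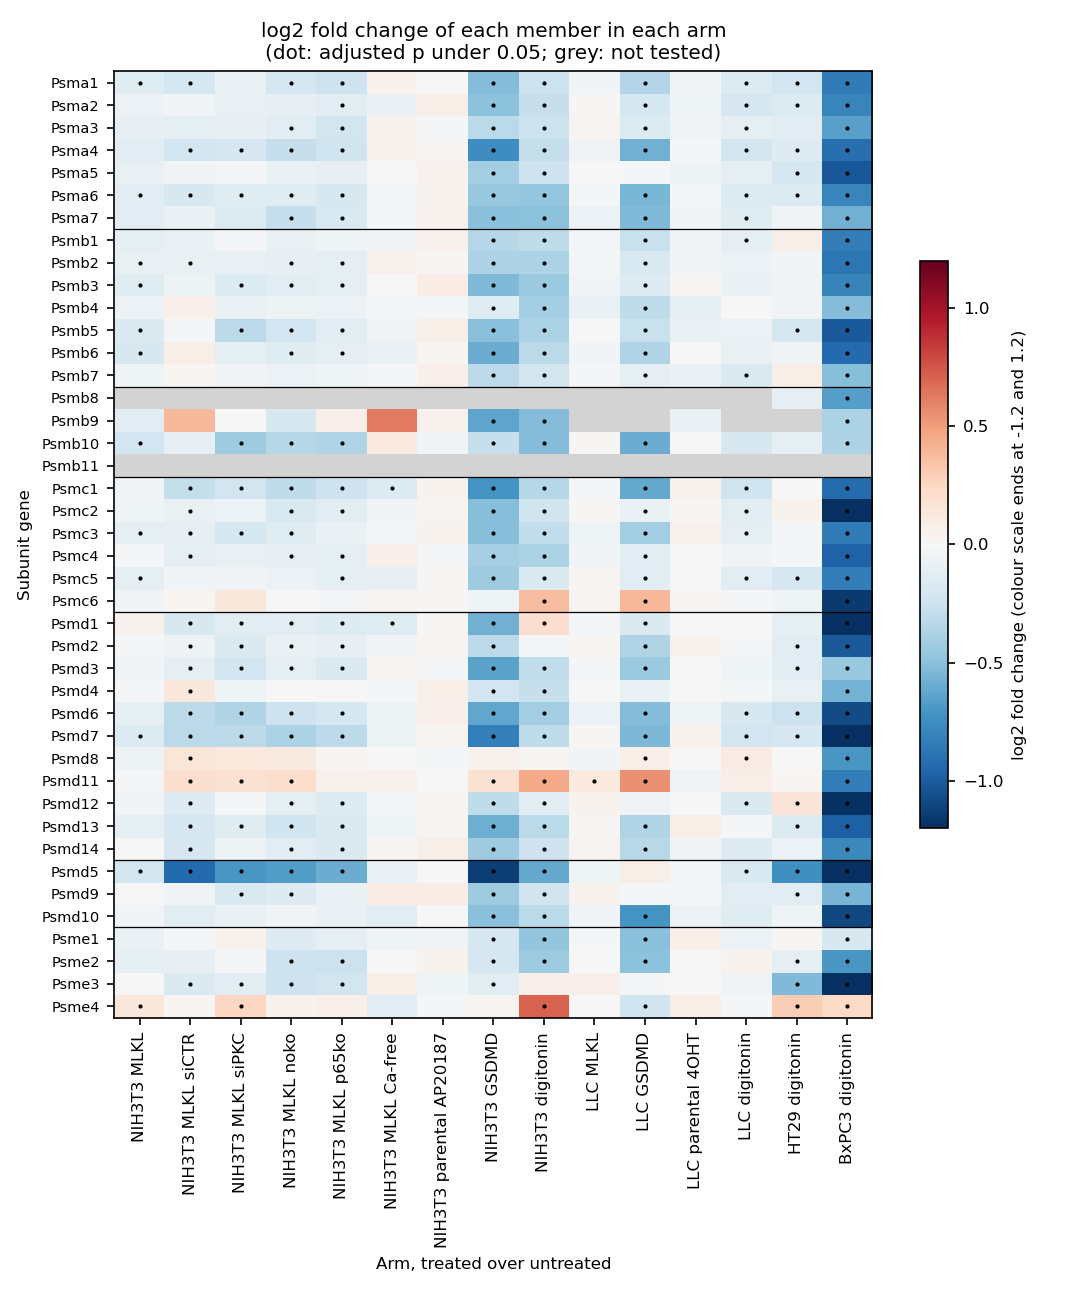
Change of each of the 42 members (rows) in the 15 arms (columns) on the log2(TPM + 1) scale, red for higher and blue for lower, with a dot where the adjusted p was under 0.05 and grey where a member was not tested. Psmd5 and Psmd7 are blue across most arms, Psmd11 and Psme4 red in several, and the BxPC3 column is blue for 40 of its 41 tested members.

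The core and the 19S particle were set side by side in each arm. Their medians were -0.47 and -0.42 after gasdermin in NIH3T3, -0.31 and -0.25 after digitonin in NIH3T3, -0.27 and -0.17 after gasdermin in LLC and -0.82 and -0.97 after digitonin in BxPC3 cells. Summed TPM of the core over that of the particle was 1.66 ± 0.0178 in digitonin-treated and 1.46 ± 0.0153 in untreated BxPC3 cells (SD, n = 2 each). In digitonin-treated NIH3T3 cells the same ratio was 1.25 ± 0.00151, against 1.44 ± 0.0295 in untreated ones. It was 1.31 ± 0.0226 in AP20187-treated and 1.37 ± 0.0131 in untreated NIH3T3 MLKL cells. Both libraries of the treated group lay above the untreated ones in BxPC3 and in Ca2+-free DMEM, and below them in NIH3T3 MLKL, gasdermin and digitonin cells and in all 4 LLC arms, including the 4OHT control without a construct. The groups overlapped in the remaining 6 arms.

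Whether 2 responses differed was tested for 6 pairs. The response to AP20187 differed between NIH3T3 cells with and without the MLKL construct for 5 of 40 members, all lower, where 20.5% of all genes differed. Psmd7 was among them (-0.21 ± 0.041 (SE, adjusted p = 0.001)), and so were Psmb5, Psmb6 and Psmd5. The fifth, Psmb3, had 483 and 487 TPM treated and 539 and 537 TPM untreated with the construct, against 509 and 511 TPM treated and 449 and 508 TPM untreated in cells without it (-0.24 ± 0.063 (SE, adjusted p = 0.00853)), and lost its call without untreated replicate 1 of the cells lacking the construct (adjusted p = 0.0741). With single libraries left out 1 to 6 members were called.

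Few members passed the tests for medium, siRNA and p65. Between Ca2+-free and complete DMEM, 4 members differed (background 21.9%): Psmb2 (0.13 ± 0.044 (SE, adjusted p = 0.0348)), Psmb10 (0.34 ± 0.12 (SE, adjusted p = 0.0419)), Psmd1 (-0.20 ± 0.047 (SE, adjusted p = 0.00356)) and Psme4 (-0.26 ± 0.061 (SE, adjusted p = 0.00371)). Psme4 had 44.0 and 44.8 TPM treated and 48.7 and 48.2 TPM untreated in Ca2+-free DMEM, so that the treated libraries lay below the untreated ones there and above them in complete DMEM. After centring 4 members differed upward and 2 downward (all genes 12.5% and 10.8%), and the calls of Psmb2 and Psmb10 were lost with single libraries left out. Between p65ko and noko cells 1 member differed (background 4.10%): Psmd11, with 201 and 207 TPM treated and 201 and 192 TPM untreated in p65ko cells, had a smaller change there (-0.16 ± 0.041 (SE, adjusted p = 0.0349)), a call lost with single libraries left out. Between siPKC and siCTR 3 members differed (background 8.29%), 0 upward and 4 downward after centring (all genes 2.91% and 5.66%), and 0 to 5 with single libraries left out. They were Psme4 (0.24 ± 0.068 (SE, adjusted p = 0.0325); 0.0715 after centring), Psmd4 (-0.19 ± 0.051 (SE, adjusted p = 0.0258)) and Psmb5 (-0.29 ± 0.088 (SE, adjusted p = 0.0491)).

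In LLC cells the response to 4OHT differed between gasdermin cells and cells without a construct for 2 members upward and 27 downward of 40 (background 71.8% in either direction), a share near that of all genes, or 7 upward and 14 downward after centring (all genes 28.8% and 41.3%). The upward ones were Psmd11 (0.59 ± 0.045 (SE, adjusted p = 2.96e-07)), which had 152 and 156 TPM treated and 154 and 164 TPM untreated without a construct, and Psmc6 (0.39 ± 0.096 (SE, adjusted p = 0.0034)), which had 251 and 255 TPM treated and 239 and 264 TPM untreated. Psmc1 (-0.65 ± 0.045 (SE, adjusted p = 1.45e-07)) and Psmd7 (-0.58 ± 0.043 (SE, adjusted p = 2.43e-07)) led the downward ones. Between BxPC3 and HT29 the response to digitonin differed for 39 of 41 members, all lower in BxPC3 (background 64.1% in either direction). PSMD2 had 201 and 203 TPM treated and 224 and 218 TPM untreated in HT29 cells, and its difference between lines was -0.88 ± 0.039 (SE, adjusted p = 9.55e-06). For PSMD1, at 129.7 and 122 TPM treated and 133 and 139 TPM untreated in HT29 cells, it was -1.28 ± 0.062 (SE, adjusted p = 1.29e-05).

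Untreated cells also differed among themselves. Untreated MLKL cells in Ca2+-free DMEM had 0 members higher and 17 lower than those in complete DMEM (background 8.55% and 27.7%), or 4 higher and 6 lower after centring (all genes 20% and 16.8%). Psmd11 had 151 and 153 TPM in Ca2+-free and 185 and 189.5 TPM in complete DMEM (-0.30 ± 0.030 (SE, adjusted p = 7.01e-08)), and Psmc2, an ATPase, 154 and 147 TPM in Ca2+-free and 188 and 189 TPM in complete DMEM (-0.32 ± 0.036 (SE, adjusted p = 4.44e-07)). Untreated p65ko cells had 19 members higher and 5 lower than noko cells (background 31.8% and 15.2%). Of the 17 subunits of the 19S particle 12 were higher and 1 lower there, led by Psmc5 (303 and 296 TPM in p65ko, 245 and 257 TPM in noko cells, 0.26 ± 0.035 (SE, adjusted p = 5.1e-06)). Psme4 was also higher (64.5 and 67.1 TPM in p65ko and 51.2 and 51.4 TPM in noko cells, 0.35 ± 0.043 (SE, adjusted p = 1.06e-06)). Psme2 (60.1 and 52.9 TPM in p65ko, 76.3 and 80.3 TPM in noko cells, -0.47 ± 0.060 (SE, adjusted p = 1.91e-06)) and Psmb5 (226 and 227 TPM in p65ko and 304 and 303 TPM in noko cells, -0.42 ± 0.056 (SE, adjusted p = 3.11e-06)) were lower, as was Psme1 (-0.51). After centring 11 members were higher and 7 lower in p65ko cells (all genes 21.5% and 22.1%). Effects of the knockout and of the cell population that carries it cannot be told apart.

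Between the human lines untreated BxPC3 cells had 8 members higher and 27 lower than HT29 cells of 41 tested (background 36.6% and 43.6%). All 3 tested immunoproteasome subunits were higher, with PSMB9 at 20.4 and 22.9 TPM in BxPC3 and 0.165 and 0.0768 TPM in HT29 cells (4.34 ± 0.093 (SE, adjusted p = 3.25e-08)), and so were PSME1 (1.35) and PSME2 (443 and 443 TPM in BxPC3 and 152 and 144 TPM in HT29 cells, 1.58 ± 0.032 (SE, adjusted p = 2.7e-08)). Of the 19S particle 0 were higher and 14 of 17 lower in TPM, with PSMD12 at 55 and 51.4 TPM in BxPC3 and 201 and 209.9 TPM in HT29 cells (-1.93 ± 0.047 (SE, adjusted p = 5.96e-08)) and PSMD13, another lid subunit, at 91.3 and 91.1 TPM in BxPC3 and 246 and 250.0 TPM in HT29 cells (-1.43 ± 0.034 (SE, adjusted p = 4.88e-08)). Of 10 genes of antigen presentation and interferon response, 9 were higher in BxPC3, among them ERAP1 (2.72 ± 0.052 (SE, adjusted p = 1.92e-08)), a peptide-trimming enzyme.

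The contrast between the mouse lines took the 2 NT libraries of cells without a construct from each line. Of 40 tested members, 23 were higher and 6 lower in LLC than in NIH3T3 cells (background 35.3% and 40.2%). Psma7 had 654 and 642 TPM in LLC and 340.5 and 345 TPM in NIH3T3 cells (0.92 ± 0.032 (SE, adjusted p = 1.66e-07)), and Psmb7, the trypsin-like subunit, 576 and 601 TPM in LLC and 386 and 402 TPM in NIH3T3 cells (0.58 ± 0.038 (SE, adjusted p = 5.48e-06)). Psmb2 was lower in LLC (317 and 316 TPM in LLC and 449 and 450.3 TPM in NIH3T3 cells, -0.51 ± 0.036 (SE, adjusted p = 7.92e-06)), as was Psmb9 (0.698 and 1.10 TPM in LLC and 2.46 and 2.97 TPM in NIH3T3 cells, -0.97 ± 0.13 (SE, adjusted p = 0.000306)). Over all untreated libraries, only Psma7 of these genes stood apart, at 524 to 654 TPM in LLC and 255 to 359 TPM in NIH3T3 cells. Psmb7 spanned 385 to 601 TPM in LLC and 278 to 402 TPM in NIH3T3 cells. Psmb2 spanned 316 to 442 TPM in LLC and 393 to 704 TPM in NIH3T3 cells. Psmb9 spanned 0 to 1.10 TPM in LLC and 0.976 to 2.97 TPM in NIH3T3 cells. The lines and their library preparation cannot be told apart in this comparison.

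Genes that work with the proteasome gave a mixed picture. The list for the NRF1 pathway held Nfe2l1, Ddi2, Ngly1 and Vcp. It also held Nfe2l2, the gene of NRF2, and the small Maf genes Maff, Mafg and Mafk. Of these 8 genes, 6 rose and 0 fell after AP20187 in NIH3T3 MLKL cells (15.8% and 16.5% of all genes). The counts were 5 and 2 after gasdermin in NIH3T3 (20% and 58.6%) and 7 and 0 after digitonin in NIH3T3 (39.3% and 34.2%). They were 6 and 1 after gasdermin in LLC (27.9% and 54.0%) and 4 and 4 after digitonin in BxPC3 cells (23.7% and 56.9%). In noko cells 4 rose and 3 fell (10.6% and 55.5%), in p65ko cells 4 and 2 (8.99% and 50.4%). Digitonin gave 4 and 2 in HT29 (16.5% and 44.0%) and 6 and 1 in LLC cells (20.3% and 32.2%). AP20187 gave 5 and 2 with siCTR (13.7% and 51.8%) and 5 and 0 in LLC MLKL cells (5.48% and 2.08%). The rises were led by the small Maf partners rather than by Nfe2l1: Maff changed by 3.29 ± 0.068 (SE, adjusted p = 2.96e-20) after gasdermin in NIH3T3, 3.61 ± 0.063 (SE, adjusted p = 5.4e-13) after gasdermin in LLC and 3.34 ± 0.057 (SE, adjusted p = 3.54e-08) for MAFF after digitonin in BxPC3 cells. In BxPC3 cells NFE2L1 itself fell, with 39.7 and 40.7 TPM after digitonin and 78.4 and 80.2 TPM untreated (-0.96), as did DDI2, the protease that activates NRF1 (-1.26), NGLY1 (-0.48) and VCP (-0.91), and the 4 that rose there were MAFF, MAFG, MAFK and NFE2L2.

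Ubiquitin genes and ubiquitin-binding shuttles, 14 genes in all, moved both ways in the same arms. In NIH3T3 MLKL cells 7 rose and 1 fell (15.8% and 16.5% of all genes), and in NIH3T3 gasdermin cells 6 and 5 (20% and 58.6%). The counts were 11 and 2 in NIH3T3 digitonin (39.3% and 34.2%) and 11 and 3 in LLC gasdermin cells (27.9% and 54.0%). In BxPC3 digitonin cells 7 rose and 6 fell (23.7% and 56.9%). Sqstm1, a shuttle between ubiquitin and autophagy, averaged 1658 TPM in 4OHT-treated and 213 TPM in untreated NIH3T3 gasdermin cells (2.95 ± 0.025 (SE, adjusted p = 3.31e-26)). A further list held 10 proteasome genes with other names, such as assembly chaperones and ubiquitin receptors. Of these, 8 fell in NIH3T3 gasdermin cells (58.6% of all genes), 8 after NIH3T3 digitonin (34.2%) and 10 after BxPC3 digitonin (56.9%). In LLC gasdermin cells 7 fell (54.0%), in NIH3T3 MLKL cells 5 (16.5%) and in LLC MLKL cells 0 (2.08%). Psmg3, a chaperone of the 20S core, changed by -1.25 ± 0.11 (SE, adjusted p = 2.36e-09) in noko MLKL cells, -1.27 ± 0.042 (SE, adjusted p = 7.51e-11) in LLC gasdermin cells and -1.04 in digitonin-treated NIH3T3 cells. Adrm1, a ubiquitin receptor of the 19S particle, rose with siCTR (0.45 ± 0.055 (SE, adjusted p = 4.31e-07)).

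Transcript length varied from 711 to 6491 bases among the 42 mouse members, and the change in some arms varied with it. Across the 40 tested members Spearman's rho between transcript length and change was 0.56 in NIH3T3 MLKL cells, where it was 0.287 across all genes. It was 0.57 in digitonin-treated NIH3T3 cells, where it was 0.504 across all genes. The members' rho was -0.14 with siCTR, -0.01 with siPKC, 0.16 in noko, 0.08 in p65ko and 0.06 in NIH3T3 gasdermin cells. In LLC cells it was 0.41 after MLKL, 0.36 after gasdermin and 0.08 after digitonin. These are descriptions across genes of the same libraries, which are not independent, and the part of length in the results was not tested. By exon, 11 of the 42 mouse members overlap another annotated gene, 2 of them on the same strand (Psmb5 with Mir686 and Psmd1 with Gm21972), so that reads of those pairs may be shared. Of 4 annotated Psm pseudogenes 0 are rows of the table.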

How the data were processed

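Polyadenylated RNA of 59 libraries was analysed. The values the authors deposited are TPM per gene, in a table of 51 mouse libraries and a table of 8 human libraries. The unit was inferred from library totals of 999910 to 999989 in the mouse table. Salmon and the builds mm10 and hg19 are named per the submitters' processing notes, with its version and settings not given in the sources used here. Depth is not kept in TPM, so precision rests on the spread between libraries.

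The members and lists were chosen with earlier results of these data known. The design foresaw limma for a normalized unit, and limma 3.58.1 (trend) in R 4.3.3 was fitted to log2(TPM + 1), with 1 model each for NIH3T3, for LLC and for the human lines together. A further model of the mouse NT libraries without a construct and the noDig libraries compared the mouse lines, by a contrast of those NT groups. No replicate block was used. A gene was tested at 1 TPM or more in at least 2 libraries of the comparison and called at a Benjamini-Hochberg adjusted p under 0.05 over all genes tested in it, in 15 arms, 6 interactions and 4 comparisons of untreated cells. Interactions and comparisons of untreated cells reuse libraries of the arms. Some untreated libraries therefore serve in several comparisons, and no overlap between those was computed.

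Library values are given for up to 3 members per direction in an arm, by adjusted p among those whose groups do not overlap, for up to 2 per direction elsewhere, and for the catalytic pairs. Other lists name up to 2 genes per comparison by adjusted p. Members such as PSMC2, PSMD1, PSMD7 and PSMD11 in BxPC3 cells, Psmd5 and Psmd7 in arms where they fell outside this rule, and Psmb5, Psmb6, Psmd5 and Psmd10 in single comparisons were chosen after their values were seen. Alternatives were a pseudocount of 0.1, median centring over genes at 1 TPM or more in every library of the model, no filter on low values, a block for the replicate number, and omission of each library in turn. Replicate numbers did not pair the samples (correlation of deviations -0.05 to 0.12), so the block is an alternative only. The fit was tested on simulated data. Mouse positions and lengths came from GENCODE for mm10 and promoters from RefSeq on GRCm38.p6. Tables were handled with pandas 2.3.3 and drawn with matplotlib 3.10.9. No protein sequences or human annotation were used here.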

Additional observations from a re-analysis of the deposited data

Results flagged for a closer look

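These members are listed because their response differed between 2 settings by limma's interaction test, adjusted over all genes; each value is the difference of the 2 changes on the log2(TPM + 1) scale, and no cause was tested. For AP20187 in NIH3T3 cells with the MLKL construct, against cells without it, Psmd7 gave -0.21 ± 0.041 (SE, adjusted p = 0.001) and Psmb3 -0.24 ± 0.063 (SE, adjusted p = 0.00853). Psmd7 had 272 and 263 TPM treated and 294 and 307 TPM untreated with the construct, and 309 and 306 TPM treated and 306 and 293 TPM untreated without it.

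For the MLKL response in Ca2+-free DMEM against complete DMEM, Psmb2 gave 0.13 ± 0.044 (SE, adjusted p = 0.0348) and Psmb10 0.34 ± 0.12 (SE, adjusted p = 0.0419), both higher in Ca2+-free DMEM. Psmd1 gave -0.20 ± 0.047 (SE, adjusted p = 0.00356) and Psme4 -0.26 ± 0.061 (SE, adjusted p = 0.00371), both lower there. Psmb10 had 12.7 and 13.3 TPM treated and 11 and 12.9 TPM untreated in Ca2+-free DMEM, and 12.1 and 11.4 TPM treated and 14.1 and 13.8 TPM untreated in complete DMEM, so that treated and untreated libraries overlapped in Ca2+-free DMEM.

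In p65ko against noko cells Psmd11 gave -0.16 ± 0.041 (SE, adjusted p = 0.0349). With siPKC against siCTR, Psme4 gave 0.24 ± 0.068 (SE, adjusted p = 0.0325), Psmd4 -0.19 ± 0.051 (SE, adjusted p = 0.0258) and Psmb5 -0.29 ± 0.088 (SE, adjusted p = 0.0491), where the treated siPKC group is 1 library. Psmb5 had 187 TPM in that library and 241 and 224 TPM untreated, while with siCTR it had 213 and 232 TPM treated and 240.2 and 213 TPM untreated, which overlap.

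For 4OHT in LLC gasdermin cells against LLC cells without a construct, Psmd11 gave 0.59 ± 0.045 (SE, adjusted p = 2.96e-07), Psmc6 0.39 ± 0.096 (SE, adjusted p = 0.0034), Psmc1 -0.65 ± 0.045 (SE, adjusted p = 1.45e-07) and Psmd7 -0.58 ± 0.043 (SE, adjusted p = 2.43e-07). Psmc1 had 223 and 228 TPM treated and 217 and 221 TPM untreated without a construct. For digitonin in BxPC3 against HT29 cells, PSMD2 gave -0.88 ± 0.039 (SE, adjusted p = 9.55e-06) and PSMD1 -1.28 ± 0.062 (SE, adjusted p = 1.29e-05).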

How the results depend on the processing

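Of 324 recomputed counts of called members 262 stayed within 1.5 times the count reported. No member named by the selection rule changed sign with a call. Outside that rule, some members called lower in TPM were called higher after centring. They numbered 2 with siCTR, 3 in noko, 1 in p65ko, 1 in NIH3T3 gasdermin and 1 in BxPC3 digitonin cells. Of 682 recomputed values of named members 621 kept their side of the threshold and 61, in 17 of 84 results, lost the call. Why counts moved was not tested.

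Median centring gave 13 higher and 4 lower members with siCTR, 4 and 6 with siPKC, 11 and 3 in noko, 8 and 2 in p65ko and 12 and 3 in HT29 digitonin cells. It gave 5 higher in NIH3T3 gasdermin, 6 in LLC gasdermin, 2 in LLC digitonin and 2 in BxPC3 digitonin cells, 9 differing between MLKL and construct-free NIH3T3 cells, and 10 differing between untreated cells in Ca2+-free and complete DMEM. With no filter on low values 7 members were lower in NIH3T3 MLKL cells and 3 differed between MLKL and construct-free cells. Shared replicate numbers are names here, and with a replicate block 6 members were lower in NIH3T3 MLKL cells, 2 higher in noko, 2 higher in LLC digitonin and 1 higher in HT29 digitonin cells. The block was not run for siPKC, which has 1 treated library, nor for LLC MLKL cells, whose titles do not give distinct numbers. A pseudocount of 0.1 moved no count past 1.5 times.

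With single libraries left out, a lone library is assumed to vary like the other groups. Counts then ran from 0 to 1 higher and 3 to 8 lower in NIH3T3 MLKL cells, 2 to 6 higher and 8 to 25 lower with siCTR, 17 to 22 lower in noko, 0 to 1 higher in p65ko, 0 lower in Ca2+-free DMEM, 0 higher in LLC MLKL, 0 to 1 higher in LLC digitonin, and 1 to 3 higher and 10 to 13 lower in HT29 digitonin cells. Members that differed numbered 1 to 6 between MLKL and construct-free cells, 2 to 4 between Ca2+-free and complete DMEM, 0 to 1 between p65ko and noko, and 0 to 5 between siPKC and siCTR.

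With 2 libraries or fewer per group and no depth in TPM, small changes rest on few values, and counting error cannot be given. All changes are relative to the other transcripts of a library, and a change in total RNA per cell was not measured.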
